A study of Homo sapiens with 6 samples.

Results

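The cytosolic ribosomal protein genes were examined in RNA-seq libraries of A2780 cells, a human ovarian cancer cell line. The set was chosen with earlier results of these data known. Its genes were taken by name: symbols made of RPL or RPS and a number with an optional ending letter, RPLP0 to RPLP2, and RPSA. This gave 81 of the 16571 gene symbols in the table, 50 of the large subunit and 31 of the small subunit, read out as 114 of 21368 messenger RNA transcripts. The control cells carried pGIPZ-NC (3 libraries), and the knockdown cells carried a short hairpin RNA against USP39, a protein of the spliceosome (shUSP39, 3 libraries). Both groups were made with lentivirus, and the design text calls the 3 libraries of a group biological replicates. The labels do not say which of the study's hairpins was used. The level of USP39 was not analysed here, and the knockdown could not be checked by it. The comparison addresses which transcripts change when USP39 is depleted.

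A ribosome is built from ribosomal RNA and one set of ribosomal proteins, divided between a small subunit that decodes the messenger RNA and a large subunit that joins amino acids. Cells make these proteins in matched amounts, and their messenger RNAs are among the most abundant in dividing cells. Most of these messenger RNAs begin with a terminal oligopyrimidine (TOP) tract, a cytosine followed by a run of pyrimidines, through which mTOR and LARP1 control their translation. Ribosomal protein genes also have many processed pseudogenes, and 1575 were annotated for the 81 genes.

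The total count per library lay between 28294819 and 32939264. Genes with at least 1 count numbered 12662 to 12809 in pGIPZ-NC and 12819 in shUSP39 replicate 1, but 15446 and 14890 in shUSP39 replicates 2 and 3, which therefore stood apart. Of the epithelial ovarian carcinoma markers, KRT18 had 676 to 711 counts in pGIPZ-NC and 932 to 1075 in shUSP39, and KRT8 had 26 to 37 and 0 to 3. PAX8, EPCAM, KRT7, CDH1 and MSLN had at most 16 counts in any library, and MUC16 had at most 6 except for 150 and 71 in shUSP39 replicates 2 and 3, so most defining markers of the labelled type were near 0. The 3 leukocyte markers and the endothelial PECAM1 had at most 7 counts, and VWF had 9 to 40. Of the fibroblast markers, COL1A1 had 187 to 245 counts and DCN had 22 to 49 in pGIPZ-NC and 0 to 6 in shUSP39. The part of these shifts in the results below was not tested.

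To show the start sites of these genes, the 30 bases around the RefSeq transcription start (15 on each side, GRCh38.p14) were searched on both strands for 4 pieces of a TOP tract, each of 5 letters, which can overlap: the piece CTTTC, then the piece CTTTT, then the piece CTCTT and lastly the piece CTTCC. Of the 81 windows, which came from 65 of the genes, 58 (71.6%) held at least 1 of them on the gene's strand, against 16.7% of all 35116 windows in the table. On the opposite strand the shares were 8.64% and 13.8%. The windows below were chosen to show genes that fell, genes that rose and 2 paralog comparisons, with the matched letters in capitals. RPL26L1 had 2 windows, and the one with a match is shown.
RPL21, chr13:27251543-27251572, plus strand, lower in shUSP39: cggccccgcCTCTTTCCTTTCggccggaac
RPS12, chr6:132814554-132814583, plus strand, lower: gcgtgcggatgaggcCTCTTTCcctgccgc
RPS27, chr1:153990747-153990776, plus strand, lower: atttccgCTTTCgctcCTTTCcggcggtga
RPS6, chr9:19380222-19380251, minus strand, lower: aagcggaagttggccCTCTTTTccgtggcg
RPL28, chr19:55385917-55385946, plus strand, higher: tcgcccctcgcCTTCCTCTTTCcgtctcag
RPS24, chr10:78033848-78033877, plus strand, higher: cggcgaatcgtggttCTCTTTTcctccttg
RPSA, chr3:39406705-39406734, plus strand, higher: tttcctgccgcctgtCTTTTccgtgctacc
RPS27L, chr15:63157463-63157492, minus strand, paralog of RPS27, not passed: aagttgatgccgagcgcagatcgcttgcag
RPL26, chr17:8383179-8383208, minus strand, not passed: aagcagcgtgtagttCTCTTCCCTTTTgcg
RPL26L1, chr5:172958714-172958743, plus strand, paralog of RPL26, not passed: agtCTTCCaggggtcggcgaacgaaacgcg

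The windows shown for genes that fell and for genes that rose each held at least 1 of the pieces, but they were chosen, so this is not a result. Windows of RPL13, which also rose, are not shown. A match was found in 80% of the 15 windows of genes that were lower in shUSP39, in 71.2% of the 59 windows of genes that did not pass the test and in 66.7% of the 6 windows of genes that were higher. A match describes letters only, and the start used in these cells was not measured.

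About 1 in 3 of the ribosomal protein genes were slightly lower in shUSP39 than in pGIPZ-NC, a few were higher, and the rest did not pass the test. Of the 79 genes that passed the filter on low counts, 26 (32.9%) were lower and 4 (5.06%) were higher at an adjusted p under 0.05, and 49 did not pass (edgeR quasi-likelihood test, Benjamini-Hochberg adjustment over 10695 genes). Of all genes tested, 17.5% were lower and 16.1% higher, 33.6% in all. The lower genes included RPL21, RPL37, RPL23A, RPS27, RPS20, RPS12, RPLP1, RPS25, RPS4X, RPS29, RPL30, RPS6, RPL5, RPL3, RPL7 and RPS2, and the higher genes were RPSA, RPS24, RPL13 and RPL28. The remaining members of the name list, RPL10L and RPL3L, had at most 7 counts in any library and were not tested.

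The changes were small. The log2 fold changes (shUSP39 over pGIPZ-NC) ran from -0.38 to 1.00 with a median of -0.06, beside a median of 0.01 over all genes tested, and 58 of 79 were negative. No member passed both the adjusted p and a 2-fold change, as 6.81% of all genes did, and RPSA lay just below that limit at 0.997. In 35 of the 79 genes (44.3%) all shUSP39 libraries lay below all pGIPZ-NC libraries, and in 7 (8.86%) above them, against 22.5% and 21.7% of all genes tested. A gene that did not pass may still differ by an amount of this size.

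The scaling of the libraries bears on counts of such small shifts. With upper-quartile scaling, 8 members were higher and 11 lower, in place of 4 and 26, and the median was -0.02 beside 0.05 over all genes. Without shUSP39 replicate 2, 16 members were lower, and with shUSP39 replicate 1 as the only knockdown library, 7 were lower and 3 higher. In 14 alternatives, 8 of scaling, filter, test or replicate number and 6 that left out a library, 11 members stayed lower throughout, among them RPL21, RPL37, RPL23A, RPLP1, RPS12, RPS27, RPS4X and RPS6.

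**Figure D1:**
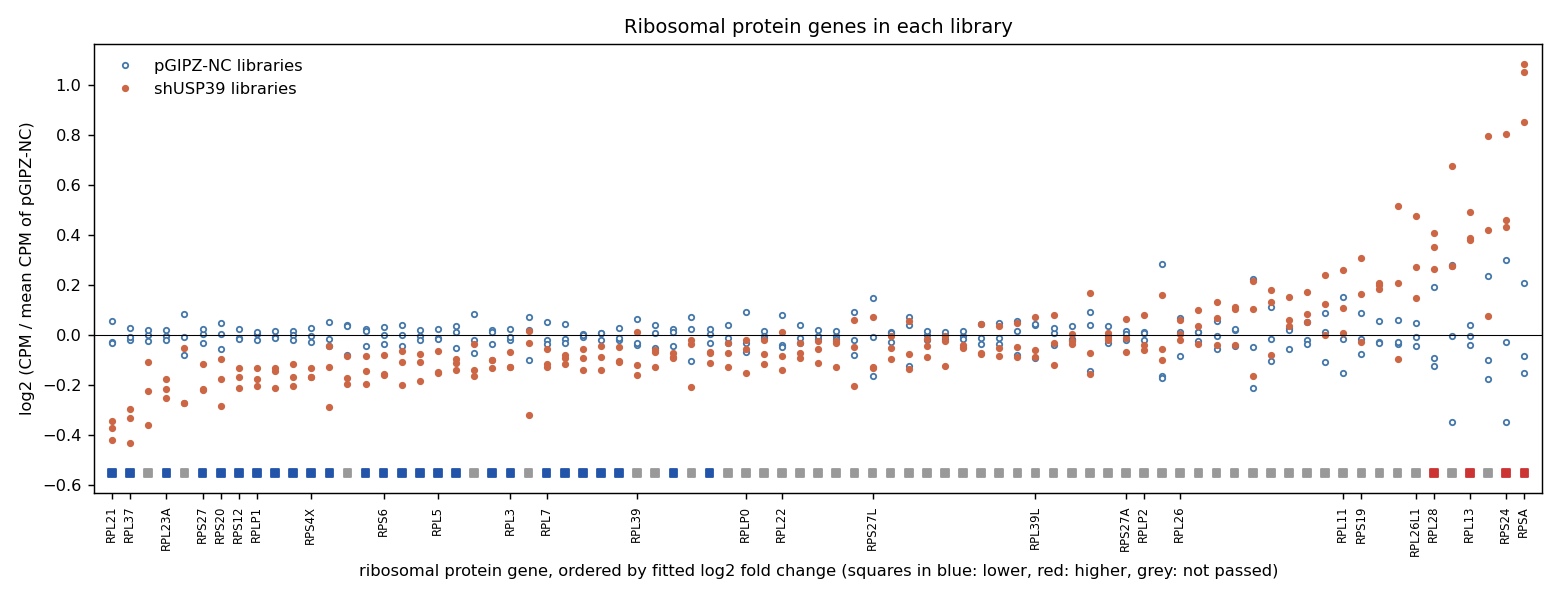
Log2 ratio of the CPM (counts scaled to the TMM-adjusted library size) of each of the 79 tested ribosomal protein genes to their pGIPZ-NC mean, with open points for pGIPZ-NC and filled points for shUSP39. Genes are ordered by fitted log2 fold change, from RPL21 at -0.38 to RPSA at 1.00, and the squares along the bottom give the test (blue for 26 lower, red for 4 higher, grey for 49 not passed). Names are shown for the genes chosen for full description.

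The median of each knockdown library was lower, to a different extent. The median log2 ratio of the 79 genes to the pGIPZ-NC mean was 0.01, 0.00060 and -0.02 in pGIPZ-NC replicates 1, 2 and 3. It was -0.04, -0.11 and -0.06 in shUSP39 replicates 1, 2 and 3. All 3 shUSP39 medians thus lay below all pGIPZ-NC medians, with replicate 2 the lowest.

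Together the ribosomal protein genes held a smaller part of the counts in shUSP39. Their share of the library's total was 5.86%, 5.82% and 5.78% in pGIPZ-NC (5.82% ± 0.042, SD, n = 3) and 5.62%, 5.45% and 5.58% in shUSP39 (5.55% ± 0.090, SD, n = 3), so the groups did not overlap. The large subunit accounted for 3.08% ± 0.023 and 2.96% ± 0.035, and the small subunit for 2.74% ± 0.019 and 2.59% ± 0.055 (SD, n = 3 each). These shares were not tested. They are parts of the total RNA counted, so a share can also fall because counts of other genes rose. In bulk RNA such a rise, fewer cells of a type and less RNA per cell cannot be told apart.

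By subunit, 13 of 48 tested large subunit genes (27.1%) were lower and 2 (4.17%) higher, with a median log2 fold change of -0.05. Of the 31 small subunit genes, 13 (41.9%) were lower and 2 (6.45%) higher, with a median of -0.08. Of all genes tested, 17.5% were lower and 16.1% higher. The difference between the subunits was not tested.

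The largest falls were in 2 large subunit genes. RPL21, on chr13:27825499-27830828 of GRCh37 (plus strand, 6 exons), had 614, 579 and 578 CPM in pGIPZ-NC and 465, 442 and 457 in shUSP39. Every shUSP39 library was thus well below every control library, and the gene fell by 23.0% (log2 fold change -0.38 ± 0.035, SE, adjusted p = 2.4e-09, edgeR). RPL37, on chr5:40825364-40835324 (minus strand, 4 exons), had 663, 642 and 647 CPM against 531, 482 and 518. It fell by 21.6% (-0.35 ± 0.036, SE, adjusted p = 1.4e-08, edgeR), again with a wide gap between the groups. RPL21 has 133 annotated pseudogenes, the most of the genes named here, and RPL37 has 15. Reads from such near-identical copies cannot be told apart from the parent gene in these counts, and their part was not tested.

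Smaller falls were seen in RPL23A, RPS27, RPS12 and RPS20. RPL23A, a protein at the exit of the nascent chain tunnel of the large subunit, went from 1407, 1384 and 1368 CPM to 1227, 1194 and 1164, a fall by 13.8% (adjusted p = 1.9e-06). RPS27, a zinc finger protein of the small subunit, went from 890, 866 and 901 CPM to 817, 763 and 760 and fell by 11.9% (adjusted p = 9.2e-05). RPS12, also of the small subunit, went from 1918, 1874 and 1867 CPM to 1722, 1628 and 1680 and fell by 11.1% (adjusted p = 3.3e-05, edgeR for all 3). In these genes too, the lowest pGIPZ-NC library lay above the highest shUSP39 library. RPS20, a far less counted small subunit gene, had 87.7, 85.0 and 81.7 CPM against 79.5, 75.0 and 69.8, groups that were close to each other (fall by 11.9%, adjusted p = 0.018, edgeR). Its call was lost without pGIPZ-NC replicate 1 (adjusted p = 0.073), pGIPZ-NC replicate 2 (0.051) or shUSP39 replicate 3 (0.13), with upper-quartile scaling (0.077) and with shUSP39 replicate 1 alone (0.49, edgeR), and that of RPS27 with shUSP39 replicate 1 alone (0.075).

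The P stalk, a flexible arm of the large subunit that recruits the translation factors, is built on RPLP0 and RPL12 and carries pairs of RPLP1 and RPLP2. Of these 4 genes, only RPLP1 changed at the adjusted p. RPLP1 had 1215, 1235 and 1242 CPM in pGIPZ-NC and 1090, 1069 and 1125 in shUSP39, and fell by 11.1% (log2 fold change -0.17 ± 0.030, SE, adjusted p = 5.7e-05, edgeR). Its partner RPLP2 had 1555, 1523 and 1551 CPM against 1483, 1502 and 1633, with shUSP39 replicate 3 above every control library and the other two shUSP39 libraries below. RPLP2 was close to 0 in log2 fold change (-0.0033 ± 0.033, SE, adjusted p = 0.95, edgeR), and the difference between RPLP1 and RPLP2 was not tested. RPLP0 had 70.7 ± 4.22 and 67.2 ± 3.17 CPM (SD, n = 3 each, adjusted p = 0.39) and RPL12 had 1073 ± 25.5 and 1068 ± 9.66 (adjusted p = 0.89, edgeR).

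RPL5 and RPL11 bind the smallest ribosomal RNA of the large subunit, and this complex restrains MDM2 when ribosome assembly is disturbed. RPL5 had 1460, 1424 and 1418 CPM in pGIPZ-NC and 1374, 1290 and 1295 in shUSP39, and fell by 7.95% (adjusted p = 0.0029, edgeR), a call that was lost with upper-quartile scaling (adjusted p = 0.055) or with shUSP39 replicate 1 alone (0.36). RPL11 had 63.7, 58.0 and 71.5 CPM against 69.5, 77.2 and 64.8, so the groups overlapped (log2 fold change 0.13 ± 0.073, SE, adjusted p = 0.18, edgeR). Without pGIPZ-NC replicate 3, RPL11 was higher at an adjusted p of 0.049.

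Of the other large subunit genes named here, RPL3 lies at the peptidyl transferase centre, and RPL7 is a structural protein. RPL3 had 628, 648 and 634 CPM in pGIPZ-NC and 582, 607 and 584 in shUSP39 and fell by 7.14% (adjusted p = 0.012, edgeR). This call was lost without pGIPZ-NC replicate 2 (adjusted p = 0.063) or shUSP39 replicate 3 (0.051), with upper-quartile scaling (0.15), with library size only (0.055) and with shUSP39 replicate 1 alone (0.057). RPL7 had 1625, 1543 and 1528 CPM against 1508, 1445 and 1434, with a gap of small size between the groups, and fell by 6.57% (adjusted p = 0.015, edgeR). Its call was lost without pGIPZ-NC replicate 1 (adjusted p = 0.093), shUSP39 replicate 2 (0.066) or shUSP39 replicate 3 (0.079), with upper-quartile scaling (0.18), with library size only (0.063) and with shUSP39 replicate 1 alone (0.45). RPL22 had 636 ± 32.4 and 607 ± 32.8 CPM (adjusted p = 0.21), and RPL39 had 295 ± 11.7 and 278 ± 17.4 (adjusted p = 0.14, SD, n = 3 each, edgeR). Without shUSP39 replicate 1 both RPL22 (adjusted p = 0.027) and RPL39 (0.010) were lower.

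Among the small subunit genes, RPS6 is the substrate of the S6 kinases and RPS4X is the X-linked form of the eS4 protein. RPS6 had 2016, 1969 and 1920 CPM in pGIPZ-NC and 1863, 1763 and 1766 in shUSP39 and fell by 8.69% (adjusted p = 0.00098, edgeR). RPS4X had 2100, 2053 and 2018 CPM against 1880, 1832 and 1833 and fell by 10.1% (adjusted p = 7.6e-05, edgeR). In both genes all shUSP39 libraries lay below all controls, and the call of RPS6 was lost with shUSP39 replicate 1 alone (adjusted p = 0.20). RPS27A, which is made as a fusion with ubiquitin, had 57.7, 56.2 and 57.2 CPM against 54.4, 56.6 and 59.6, with overlapping groups (adjusted p = 0.97, edgeR). RPS2, with the highest level of all members, had 4771 ± 19.3 and 4468 ± 127 CPM (SD, n = 3 each) and fell by 6.37% (adjusted p = 0.0051, edgeR).

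Genes whose loss causes Diamond-Blackfan anaemia, a failure of red cell production, were found among the lower and the higher genes. Of 19 such members tested, 5 (26.3%) were lower (RPS27, RPS20, RPS29, RPL5 and RPS26) and 1 (5.26%) was higher (RPS24), beside 17.5% and 16.1% of all genes, with a median log2 fold change of -0.05. RPS19, the first gene linked to the disease, had between 24.0 and 26.8 CPM in pGIPZ-NC (25.3 ± 1.46) and between 24.8 and 31.3 in shUSP39 (28.2 ± 3.26, SD, n = 3 each), with overlapping groups (adjusted p = 0.20, edgeR).

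Several ribosomal proteins have a paralog that is expressed in particular tissues or on stress. Of the 3 paralogs tested, none passed. RPS27L, a p53 target and the paralog of RPS27, had 60.5, 48.8 and 54.3 CPM in pGIPZ-NC and 57.3, 49.9 and 49.9 in shUSP39 (adjusted p = 0.61), with overlapping groups. RPL39L had 73.5 ± 3.87 and 72.2 ± 4.37 CPM (SD, n = 3 each, adjusted p = 0.81, edgeR). RPL26L1 had 7.72, 7.91 and 8.22 CPM against 8.81, 9.61 and 11.0, so that all shUSP39 libraries were higher, yet it did not pass (log2 fold change 0.31 ± 0.14, SE, adjusted p = 0.092, edgeR). Its parent RPL26 had 146 ± 7.76 and 148 ± 4.18 CPM (adjusted p = 0.84, edgeR). RPL3L, of striated muscle, had 2, 2 and 1 counts in pGIPZ-NC and 3, 7 and 6 in shUSP39, and RPL10L, of the testis, had 0, 0 and 0 against 0, 4 and 1. RPL22L1 and RPL7L1 were not analysed here.

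The 4 genes that rose were all counted at low levels. RPSA, the laminin receptor protein of the small subunit (chr3:39448207-39467746, plus strand, 7 exons), had 3.95, 3.23 and 3.08 CPM in pGIPZ-NC and 7.25, 6.18 and 7.10 in shUSP39. It was 99.6% higher (log2 fold change 1.00 ± 0.18, SE, adjusted p = 7.2e-05, edgeR), with every shUSP39 library far above the controls. RPL13 (chr16:89627085-89630950, plus strand, 6 exons) had 46.1, 47.2 and 48.7 CPM against 61.7, 66.5 and 62.0, a rise of 34.0% (adjusted p = 7.1e-06, edgeR). RPL28 had 24.9, 24.3 and 30.3 CPM against 35.2, 31.9 and 33.8, where pGIPZ-NC replicate 3 came close to the shUSP39 libraries (rise of 27.0%, adjusted p = 0.0030, edgeR). RPS24 had 3.23, 4.03 and 5.06 CPM against 5.66, 7.19 and 5.54, with the groups nearly touching (rise of 49.5%, adjusted p = 0.020, edgeR). The call of RPS24 was lost without pGIPZ-NC replicate 1 (adjusted p = 0.11), pGIPZ-NC replicate 2 (0.065) or shUSP39 replicate 2 (0.13), and with shUSP39 replicate 1 alone (0.26).

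For these genes the table listed only some of the RefSeq transcripts, so each value covers only the listed ones. It held 1 of 2 mRNA accessions of RPSA, 1 of 6 of RPS24, 1 of 3 of RPL13 and 3 of 6 of RPL28. This limit was not particular to the genes that rose. Among the genes that fell, it held 1 of 3 accessions of RPS27, 2 of 3 of RPS29, and 1 of 2 each of RPLP1, RPL3 and RPL7. Among the genes that did not pass, it held 1 of 2 each of RPLP0 and RPL11. How reads shared between transcripts were counted is not given in the sources used here. The members were therefore divided by the number of RefSeq mRNA accessions of the gene, a division made after the values were seen. The 37 tested genes with 1 accession had a median of 2607 CPM per coding kilobase in pGIPZ-NC, from 216 (RPS27L) to 5428 (RPS2). The 42 genes with 2 or more had a median of 77.8, from 2.45 (RPS9) to 3599 (RPLP1), although most ribosomal proteins enter the ribosome as a single copy. Examples of such low levels, chosen after their values were seen, were RPS9 with 1.42 ± 0.22 CPM and RPL34 with 1.76 ± 0.38 CPM in pGIPZ-NC (SD, n = 3 each).

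**Figure D2:**
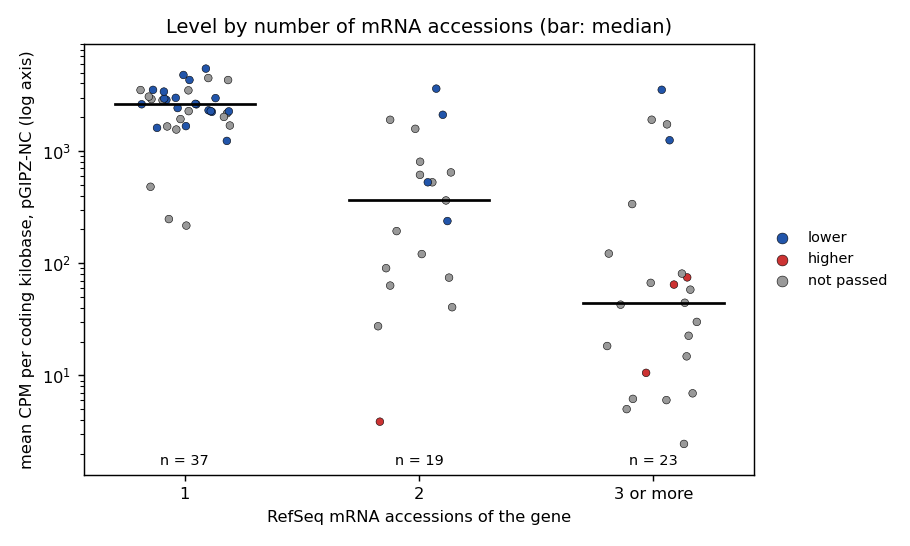
Mean CPM per coding kilobase in pGIPZ-NC (log axis) of each tested ribosomal protein gene, by the number of RefSeq mRNA accessions of the gene, with bars at the medians and points coloured by the test. The genes with 1 accession lie around 2607, and all 4 genes that rose have 2 or more accessions.

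The calls in these classes were as follows, and the difference between the classes was not tested. Of the 37 genes with 1 accession, 20 (54.1%) were lower and none higher at the adjusted p (edgeR). In this class 36 had a negative log2 fold change, and the median was -0.09. Of the 42 genes with 2 or more accessions, 6 (14.3%) were lower and 4 (9.52%) higher, 22 were negative, and the median was -0.01. The shares over all genes tested were 17.5% lower and 16.1% higher. The classes also differed in level, with a median of 1246.5 CPM in the first and 56.2 CPM in the second. Across the 79 genes, Spearman's rho of the log2 fold change was 0.459 with the number of accessions, -0.474 with the mean count and -0.189 with the number of annotated pseudogenes, a description over genes that share the same 6 libraries. Within the 37 genes with 1 accession, rho was -0.048 with the mean count and -0.306 with the number of annotated pseudogenes. The part of read assignment in these differences was not tested.

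The members were also divided by level. Of the 41 members with a mean of at least 500 CPM, a limit set after the values were seen, 24 (58.5%) were lower and none higher (edgeR), and in 31 (75.6%) all shUSP39 libraries lay below all controls. Of the 330 other genes at this level, 43.6% were lower and 18.5% higher, and in 48.2% all shUSP39 libraries lay below all controls. The median log2 fold change was -0.09 in these members and -0.06 in these other genes, so a tilt towards lower values was also present in other abundant genes. The difference between both was not tested. Of the 38 members under 500 CPM, 2 were lower (RPS20 and RPS29) and 4 higher, with a median of 0.00089.

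**Figure D3:**
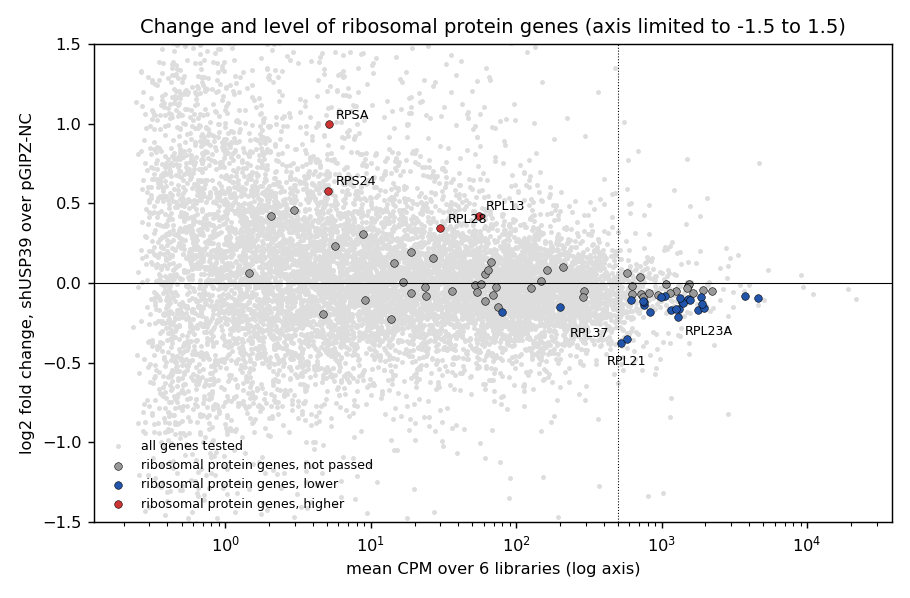
Log2 fold change (shUSP39 over pGIPZ-NC, axis limited to 1.5 in each direction) against the mean CPM over all libraries (log axis) of all genes tested, with ribosomal protein genes coloured by the test and a dotted line at 500 CPM. Of the 41 members to the right of the line, 24 were lower and none higher, and the 4 genes that rose lie to the left.

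Single transcripts were tested next. Of the 109 member transcripts that passed the filter, 27 (24.8%) were lower and 7 (6.42%) higher at an adjusted p under 0.05 (edgeR), beside 15.1% and 14.2% of all 12553 transcripts tested. Besides the transcripts of RPSA, RPS24 and RPL13 described above, the higher ones were of RPL28, RPL36, RPS19 and RPL10. The RPL10 transcript passed the filter only through its shUSP39 counts. RPL28 NM_001136137.1 had 418, 396 and 395 counts in pGIPZ-NC and 636, 529 and 566 in shUSP39 (log2 fold change 0.52 ± 0.11, SE, adjusted p = 0.00038, edgeR). The shUSP39 libraries were thus all higher, while its other listed transcripts, NM_001136134.1 and NM_001136136.1, did not pass (adjusted p = 0.59 and 0.48). RPL36 NM_015414.3 had 43.8 ± 2.82 and 53.4 ± 0.75 CPM (SD, n = 3 each, adjusted p = 0.0018), and NM_033643.2, the more abundant transcript of RPL36, had 159 ± 4.38 and 165 ± 10.04 CPM (adjusted p = 0.47, edgeR). A test of the balance between the transcripts of a gene passed neither for RPL28 (adjusted p = 0.9999) nor for RPL36 (0.58, edgeR diffSpliceDGE).

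The balance between transcripts of 1 gene was called different in 2 members, RPL10 only through a transcript that passed the filter by its shUSP39 counts. Of 23 members with at least 2 tested transcripts, RPS19 and RPL10 (8.70%) passed the test of transcript usage at an adjusted p under 0.05 (edgeR diffSpliceDGE with the Simes method), against 2.03% of the 1628 genes tested. RPS19 NM_001321485.1 had 70, 61 and 72 counts in pGIPZ-NC and 185, 149 and 195 in shUSP39 (log2 fold change 1.38 ± 0.21, SE). Its share of the listed RPS19 counts was 9.16%, 7.51% and 9.50% in pGIPZ-NC and 20.4%, 19.6% and 21.0% in shUSP39, with no overlap (usage adjusted p = 0.0018). The main listed transcript of RPS19, NM_001321484.1, held 82.3% ± 3.44 and 71.5% ± 0.97 (SD, n = 3 each) and did not itself change at the adjusted p (0.79). The table listed 3 of 4 RefSeq mRNA accessions of RPS19, so these shares are of the listed transcripts only.

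RPL10, which joins the large subunit late in its assembly, had 2 of 6 accessions in the table. Its transcript NM_001303625.1 had 0, 0 and 1 counts in pGIPZ-NC and 11, 10 and 12 in shUSP39, so all shUSP39 libraries were above the controls at a very low level. The ratio of the summed counts was 33.2, with an exact 95% interval of 5.56 to 1350 that covers counting error only. NM_001303624.1 had 318, 288 and 271 counts against 296, 274 and 213 (adjusted p = 0.44, edgeR). The usage test gave RPL10 an adjusted p of 0.0023, and it was lost without pGIPZ-NC replicate 1 (0.064) or pGIPZ-NC replicate 2 (0.073). NM_001303625.1 passed the filter on low counts only through the shUSP39 libraries, where it was high. The usage test of RPL10 rests on this transcript, so neither call is support for a change. RPS19 kept its call without any 1 library, with adjusted p up to 0.043.

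**Figure D4:**
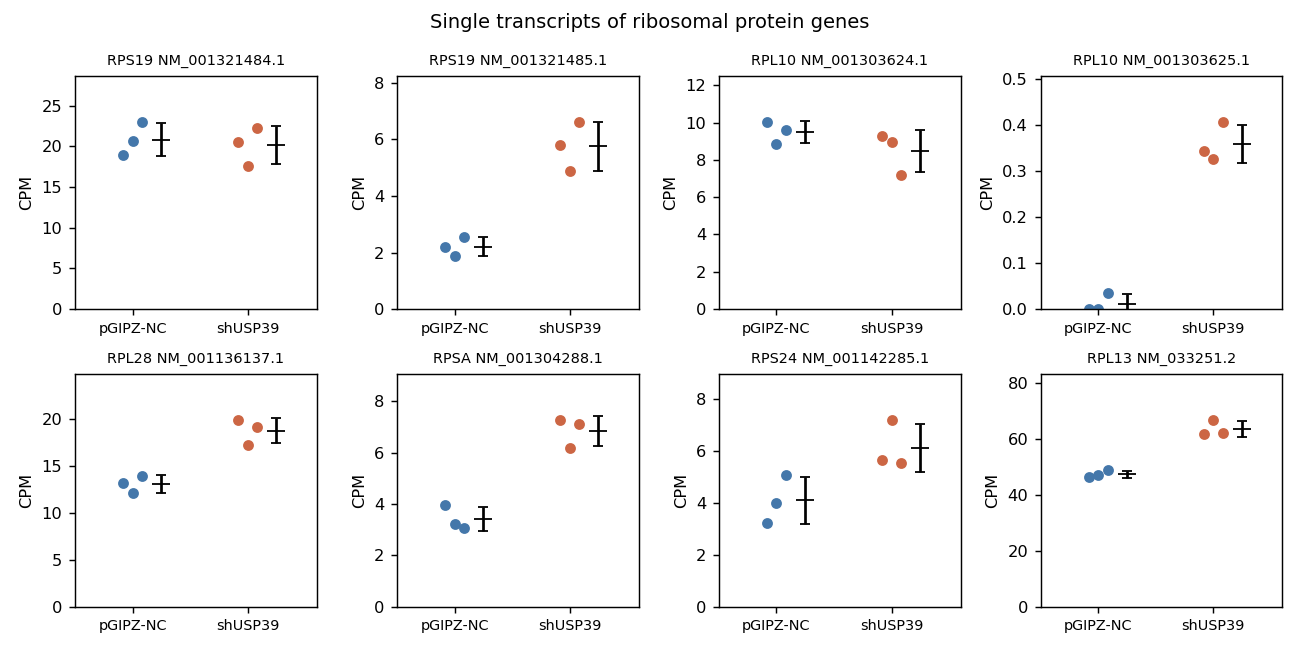
CPM of 8 single transcripts in each library, with points for the libraries of pGIPZ-NC and shUSP39 and bars for the mean and SD (n = 3 each). RPS19 NM_001321485.1 is higher in all shUSP39 libraries while NM_001321484.1 overlaps between the groups, and RPL10 NM_001303625.1 has 10 to 12 counts per shUSP39 library.

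Other genes of the same pathway were read from fixed lists. Of 109 such genes tested, 23 (21.1%) were lower and 11 (10.1%) higher at the adjusted p, beside 17.5% and 16.1% of all genes, and the median of their log2 fold changes was 0.02. Among 21 other ribosomal and TOP genes, 6 (28.6%) were lower and 1 (4.76%) higher (median -0.03). HNRNPA1, an RNA-binding protein, was lower (63.8 ± 3.21 to 49.99 ± 3.40 CPM, log2 fold change -0.35, adjusted p = 0.00015, edgeR), as was the histone chaperone NAP1L1 (-0.25, adjusted p = 0.00062). The elongation factor subunit EEF1B2 was higher (24.7 ± 0.65 to 28.6 ± 0.38 CPM, log2 fold change 0.21, adjusted p = 0.047, edgeR).

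Among 61 ribosome assembly factors, 13 (21.3%) were lower and 5 (8.20%) higher, beside 17.5% and 16.1% of all genes (median 0.02 in log2 fold change). The helicase DDX10 (296 ± 12.8 to 227 ± 8.96 CPM, log2 fold change -0.39) and the nucleolar protein HEATR1 (492 ± 14.4 to 402 ± 14.2 CPM, -0.29) had the largest falls among those that passed with at least 5 CPM (adjusted p = 3.2e-08 and 3.6e-07, SD, n = 3 each, edgeR). EBNA1BP2 (0.19, adjusted p = 0.013) and RRS1 (0.18, adjusted p = 0.00040), both of large subunit assembly, had the largest rises among those that passed with at least 5 CPM. The groups overlapped in EBNA1BP2 (90.7 CPM in pGIPZ-NC replicate 2, 90.5 in shUSP39 replicate 1) but not in RRS1. Of the 14 genes of RNA polymerase I, which makes ribosomal RNA, 2 (14.3%) were lower and 2 (14.3%) higher, no more than among all genes. POLR1D (log2 fold change -0.29) and POLR1A, the largest subunit (-0.28), were lower (adjusted p = 9.6e-05 and 2.6e-07, edgeR). TAF1D was higher (0.21, adjusted p = 0.0063), as was CD3EAP, with a mean under 5 CPM in each group. Of the 4 ribosomal protein chaperones tested, none passed the test (edgeR).

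The mTOR-LARP1 list held 9 genes, of which 2 (22.2%) were lower and 3 (33.3%) higher, beside 17.5% and 16.1% of all genes. With so few genes, these shares were not set apart from those of all genes. MTOR, the kinase that controls TOP messenger RNAs, went from 350 ± 5.23 to 262 ± 5.83 CPM (SD, n = 3 each), a log2 fold change of -0.42 (adjusted p = 5.9e-10, edgeR). The translation repressor EIF4EBP2 was also lower (-0.19, adjusted p = 0.00027), while EIF4EBP1 (0.17, adjusted p = 0.0025) and LARP1, which binds the TOP tract (0.12, adjusted p = 0.0023), were higher (edgeR). DEPTOR was also higher, with a mean under 5 CPM in each group.

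**Figure D5:**
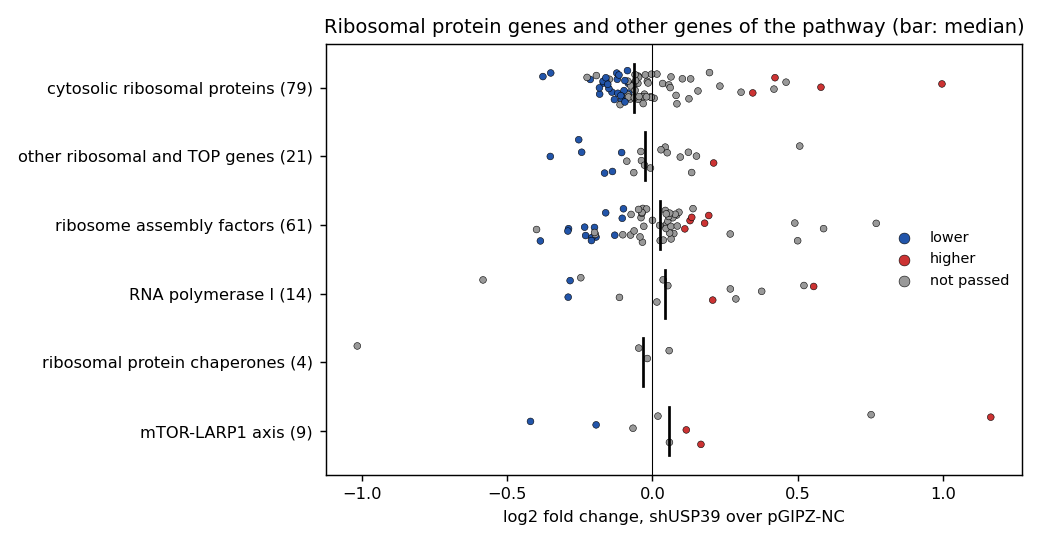
Log2 fold change (shUSP39 over pGIPZ-NC) of the 79 tested cytosolic ribosomal protein genes and of the tested genes of 5 other lists, with the number tested in brackets, points coloured by the test and bars at the medians. The medians run from -0.06 in the ribosomal protein genes to 0.06 in the mTOR-LARP1 list.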

How the data were processed

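RNA-seq libraries of A2780 cells with pGIPZ-NC (n = 3) or shUSP39 (n = 3) were compared, with groups and replicate numbers from the labels. The authors deposited raw read counts per RefSeq mRNA transcript, and their group means, folds, p-values and q-values in the same table were not used. The submitters' processing notes name HISAT2, Cufflinks and hg19; which made the counts, and the use of strand, are not given in the sources used here. Date-like symbols (46 of 47) were restored from the transcript accession, and counts were summed per symbol. Genes were tested with edgeR 4.0.16 (R 4.3.3; filterByExpr, TMM, robust quasi-likelihood, group as the only term, all 6 libraries) and adjusted by Benjamini-Hochberg over 10695 genes. CPM are counts scaled to the TMM-adjusted library size, SE is the absolute log2 fold change divided by the square root of F, and transcripts were fitted likewise. Depth was 28294819 to 32939264 counts per library. Gene positions and coding lengths came from GENCODE 44 mapped to GRCh37 (hg19), start windows and accession numbers from RefSeq (GRCh38.p14). The fits were checked on simulated data. There the gene test called 89% of 2-fold changes and 23% of log2 changes of 0.3, in genes drawn from all levels. Replicates of a group differed by more than sampling noise (chi-square per degree of freedom 4.75 to 7.81), so none was a copy. The members and gene lists were chosen with earlier results of these data known. Members named in full were a fixed list of 20 and the up to 6 largest rises and falls at an adjusted p under 0.05 with 5 CPM or more in the group that was higher (4 rises were eligible), and 2 each in the other lists; RPS2, RPL12, RPS9, RPL34, RPL36, RPL10, CD3EAP and DEPTOR were named after their values were seen. Alternatives were DESeq2 1.42.0, limma-voom (limma 3.58.1), other scalings and filters, single transcripts, a replicate block and each library left out.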

Additional observations from a re-analysis of the deposited data

How the results depend on the processing

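Depth and design limit what could be seen: a member with few counts can differ by as much as the others and not pass, and levels of genes with several RefSeq transcripts rest on the listed ones. The numbers of higher and lower members under upper-quartile scaling were 8 and 11 (median log2 fold change -0.0187 for all members, -0.0046 for the large and -0.0404 for the small subunit), in place of 4 and 26. With library size as the only scaling they were 5 and 18. Shifts of the median of all genes tested were up to 0.05 under these scalings and 0.12 with no filter. DESeq2 size factors, the DESeq2 Wald test, limma-voom, both filters and TMM factors computed without the members, the last added after seeing the data, gave 26 to 29 lower members and 4 higher. When 1 library was left out, 16 (without shUSP39 replicate 2) to 32 members were lower and 3 to 5 higher, and the median ran from -0.0929 to -0.0442 (large subunit -0.0789 to -0.0354, small subunit -0.1119 to -0.0658). With shUSP39 replicate 1 as the only knockdown library, an alternative added after seeing the data in which that library is assumed to vary like pGIPZ-NC, 7 members were lower, the large subunit median was -0.0194, and 21 in place of 34 other pathway genes passed. At the 2-fold limit 1 member, RPSA, passed with upper-quartile scaling, library size only, at least 10 counts in every library, the highest transcript of each gene, genes with 1 transcript, shUSP39 replicate 1 alone, or a limit of 1.5-fold, and 0 to 1 passed when 1 library was left out. Transcript usage was called in 1 to 2 members when 1 library was left out.

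The replicate numbers were not used to pair the samples in the main fit. Deviations of same-numbered libraries correlated at 0.097, 0.016 and 0.028, and those of differently numbered libraries at -0.064 to 0.037. These values are small and do not settle whether the numbers pair the samples. With the replicate number as a block, 34 members were lower and 5 higher, with a median of -0.0632 (large subunit -0.0490, small subunit -0.0846), and 39 in place of 34 member transcripts and 43 in place of 34 other pathway genes passed; RPL22 (adjusted p = 0.044) and RPL39 (0.027, edgeR) then were lower.

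Values of 8 single members that were not called in the comparison changed sign, and none was called at the changed sign. RPLP2 was at 0.0407 under upper-quartile scaling, 0.0219 with library size only, 0.00080 with at least 10 counts, 0.0022 for the highest transcript, 0.0069 among genes with 1 transcript, and between -0.0476 and 0.0193 when 1 library was left out. RPS27A was at 0.0402, 0.0214 and 0.00010 under the first of these settings, and between -0.0388 and 0.0232 when 1 library was left out. RPL39L was at 0.02 and 0.00090 under both scalings, 0.0714 with shUSP39 replicate 1 alone and between -0.0794 and 0.0058 when 1 library was left out. With that library alone RPL22 was at 0.0146, RPS27L at 0.0725, RPL26 at -0.0198 and RPL39 at 0.013. When 1 library was left out, RPS27L ran from -0.1384 to 0.0224 and RPL26 from -0.0308 to 0.0452, and RPS19 was at -0.0429 for its highest transcript. The cause of these changes was not tested.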
